A study of Mus musculus with 52 samples.

Results

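Distal H3K4me1 regions gained in FC/FC were stretches of chromatin, more than 5 kb from every annotated transcription start site (TSS), with an H3K4me1 peak in each of the 3 FC/FC libraries but in none of the 3 F/F libraries. The peaks of the 6 H3K4me1 libraries were merged wherever they overlapped, which gave 84105 distal regions, and 272 of these (0.323%) met the rule. H3K4me1 in these libraries chose the regions, so their H3K4me1 values are a description, and tests were made only on other marks. The study used ChIP-seq to map lysine 4 of histone H3 carrying 1, 2, or 3 methyl groups (H3K4me1, H3K4me2, H3K4me3) in 3T3-immortalized mouse embryonic fibroblasts (MEFs) that carry loxP sites in both MLL2 alleles, with 3 libraries per mark and genotype. F/F cells received no tamoxifen. FC/FC cells were exposed to hydroxy-tamoxifen for 24 h, which removes MLL2 exons by Cre recombination, and were grown for 6 further days before harvest. Tamoxifen was given to the FC/FC cells alone, so that drug and genotype cannot be told apart, and while the methods of the study call the ChIP-seq experiments independent, neither they nor the labels name the cultures behind the 3 libraries, so that the spread between them may be partly technical.

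MLL2 (also known as KMT2D) and its relative MLL3 place single methyl groups on lysine 4 of histone H3, chiefly at enhancers, the distal elements that raise transcription from promoters. Active promoters carry H3K4me3, and H3K4me2 is found at both kinds of element. H3K4me1 without H3K4me3 is therefore widely used to mark enhancers, whether active or poised. The gained regions are those in which an H3K4me1 call appeared in cells without MLL2, and the question put to them was what else they carried.

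Most fibroblast markers carried H3K4me3, and most markers of other cell types did not. Of 15 fibroblast genes, 9 had H3K4me3 above 1 RPKM (reads scaled to transcript length and library size) in every F/F library and 9 in every FC/FC library, whereas none of the 10 epithelial, 10 haematopoietic, or 10 endothelial markers did. The fibroblast surface marker Thy1 was low, at 0.249 to 0.320 RPKM. The summed H3K4me3 of the fibroblast list was 82.0 to 84.7 RPKM in F/F and 83.2 to 85.4 RPKM in FC/FC libraries. For the endothelial list the sums were 3.22 to 3.54 and 3.00 to 3.25 RPKM. For a list of adipogenic genes they were 55.2 to 63.7 and 55.2 to 64.5 RPKM, with 3 of 12 genes above 1 RPKM in every library of each genotype. One of 10 neural markers, Sox2, a stem cell and neural transcription factor, was above 1 RPKM in all 6 libraries. The H3K4me1 libraries held 26714377 to 30528079 reads in transcripts in F/F and 31253262 to 38871331 in FC/FC, with 81444 to 120661 and 89026 to 101157 peaks. These reads are summed over all transcripts, so that a read in overlapping transcripts counts more than once, and they are not the sequencing depth. The FC/FC replicate 1 library of H3K4me2 is labelled with the catalogue number of the H3K4me1 antibody and was kept under its other labels.

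Sequences are shown for 4 of the 12 gained regions with the highest scores, as examples of the DNA involved: 2 with H3K4me1 almost alone and 2 with H3K4me2 in both genotypes. Each is the 300 bases around the centre of the bases shared by the 3 FC/FC peaks, on the plus strand of mm10 (RefSeq GRCm38.p6). Capitals mark every match, on either strand, to 9 short motifs that are spelled out further on. The first lies near Neurog2, which encodes a proneural transcription factor, at chr3:127652607-127652906. The second, at chr16:24552916-24553215, is in an intron of Lpp, which encodes a focal adhesion protein. The third, at chr12:78206349-78206648, is in an intron of Gm6657 and nearest to Gphn, which encodes the scaffold gephyrin. The last, at chr6:33094626-33094925, is intergenic and nearest to Chchd3, which encodes a protein of mitochondrial cristae junctions.
Near Neurog2: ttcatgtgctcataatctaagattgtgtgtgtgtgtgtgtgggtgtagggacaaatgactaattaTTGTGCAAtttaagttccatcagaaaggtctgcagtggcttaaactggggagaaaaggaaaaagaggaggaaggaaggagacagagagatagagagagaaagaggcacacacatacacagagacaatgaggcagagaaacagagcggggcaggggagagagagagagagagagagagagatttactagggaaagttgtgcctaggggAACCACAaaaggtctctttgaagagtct
Intron of Lpp: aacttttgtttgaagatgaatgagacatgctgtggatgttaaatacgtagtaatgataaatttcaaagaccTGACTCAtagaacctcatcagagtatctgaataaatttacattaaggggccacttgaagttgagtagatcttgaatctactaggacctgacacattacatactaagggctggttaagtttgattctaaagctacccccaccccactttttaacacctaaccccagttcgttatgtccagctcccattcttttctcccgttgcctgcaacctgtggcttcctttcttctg
Near Gphn: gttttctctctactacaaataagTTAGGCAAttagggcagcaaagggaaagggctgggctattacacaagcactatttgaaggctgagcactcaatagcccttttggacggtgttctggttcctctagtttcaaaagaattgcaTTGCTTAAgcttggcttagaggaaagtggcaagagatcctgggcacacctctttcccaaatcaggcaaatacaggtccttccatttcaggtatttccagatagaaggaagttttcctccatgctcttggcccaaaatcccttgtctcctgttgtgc
Near Chchd3: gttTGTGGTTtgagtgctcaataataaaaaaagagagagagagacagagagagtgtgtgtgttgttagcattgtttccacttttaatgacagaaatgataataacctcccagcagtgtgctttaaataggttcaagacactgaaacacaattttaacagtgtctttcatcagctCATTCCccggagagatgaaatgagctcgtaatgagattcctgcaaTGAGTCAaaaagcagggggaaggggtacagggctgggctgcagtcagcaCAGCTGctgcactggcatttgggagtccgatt
The Lpp and Chchd3 windows each held 1 match to the AP-1 motif, and the Neurog2 window held none. The Gphn window held 2 matches to the C/EBP motif.

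The gained regions were weak peaks. The MACS score, 10 times the negative log10 of the peak p-value, has a minimum of 50 in these files. In FC/FC replicate 1 the members scored 50.1 to 199.6 with a median of 74.9, in replicate 2 50.03 to 205.7 with a median of 70.3, and in replicate 3 50.2 to 228.7 with a median of 80.1. The 39498 distal regions called in all 6 libraries, termed constant here, had medians of 304, 272, and 292 in the same libraries. Only 6 of the 272 members reached a score of 100 in all 3 FC/FC libraries, and the lowest of a member's 3 scores had a median of 59.8 and a maximum of 114.3. In each library the members thus lay near the floor of the peak caller. They were also short, with a median width of 1108 bp against 2525 bp for constant regions. In 9 members no base was shared by the highest-scoring peaks of the 3 FC/FC libraries.

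**Figure D1:**
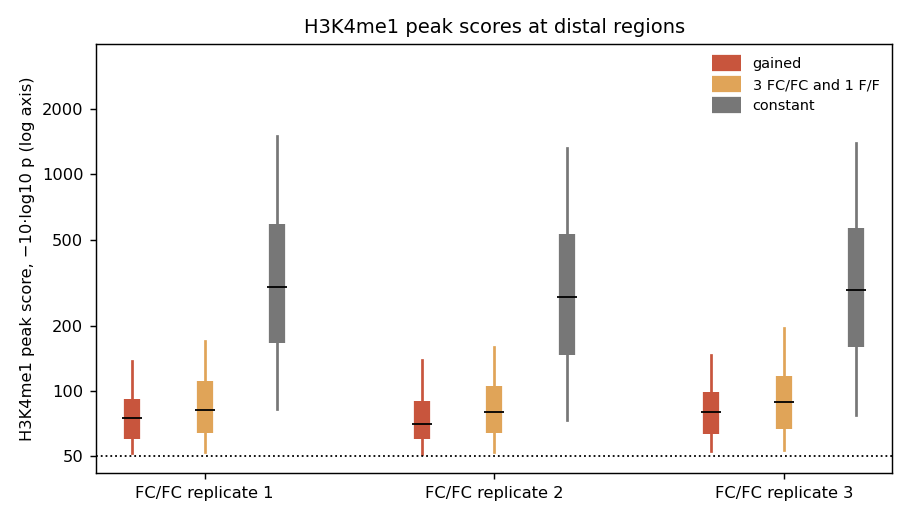
H3K4me1 peak scores in the 3 FC/FC libraries on a log axis, for gained regions (n = 272), regions with peaks in 3 FC/FC libraries and 1 of F/F (n = 1088), and constant regions (n = 39498). Thick bars span the quartiles, thin lines the 5th to 95th percentile, and black dashes the medians; the gained medians of 74.9, 70.3, and 80.1 sit just above the floor of 50 (dotted line).

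Regions just outside the rule had similar scores. There were 1088 with peaks in 3 FC/FC libraries plus a single one of F/F. The lowest FC/FC score of these had a median of 62.6, and their F/F score ran from 50.1 to 1213 with a median of 86.2 and was below 60 in 168 of them. A further 1206 regions were called in 2 FC/FC and no F/F libraries. The 3 members nearest to the score floor had lowest scores of 50.03, 50.13, and 50.2, and the member closest to a TSS lay 5005 bp from it. Of the 272 members, 68 (25%) had an F/F H3K4me1 peak within 1 kb of their edge, the median distance to such a peak was 4067 bp, and 75 members had none within 10 kb. The reverse set, with peaks in the 3 F/F libraries alone and termed lost, held 775 regions. A missing peak in F/F means that no peak passed the caller there, since read counts over these regions were not used here.

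Membership depended on the peak lists. With equal numbers of top-scoring peaks taken from each H3K4me1 library, 317 regions met the rule, of which 70 were members, or 25.7% of the members and 22.1% of the 317. With only peaks of score 100 or more, 156 regions met it, and 6 of them were members. Without F/F replicate 3 the rule took in 939 regions, and without F/F replicate 1 or 2 it took in 543 and 439. Without FC/FC replicate 1, 2, or 3 it took in 654, 805, and 595.

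The 12 gained regions with the highest lowest score serve as examples. The F/F H3K4me1 peak closest to each lay 216 bp (the region nearest to Mroh9) to 35368 bp (that nearest to Chchd3) from its edge. From the Lpp intron region it was 1322 bp. The region near Neurog2, at chr3:127652125-127653295 and 18980 bp from its TSS, scored 114.3, 154.5, and 115.1 in FC/FC replicates 1, 2, and 3. It had an H3K4me2 peak in 1 library, FC/FC replicate 2, with a score of 60.3, and no H3K4me3 peak. The Lpp intron region, at chr16:24552123-24554015, scored 134.0, 205.7, and 113.8 and had no peak of either other mark in any library. Both are regions of weak H3K4me1 in which peaks of the other marks were called in 1 library or in none, and signal below the floor of the caller was not measured.

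Of the 12, 2 carried H3K4me2 in every library of both genotypes. At the region nearest to Gphn (chr12:78205559-78207006), H3K4me1 scored 126.5, 107.3, and 130.4, and H3K4me2 scored 1491, 1157, and 1306 in F/F and 1363, 2099, and 1992 in FC/FC libraries, so that the genotypes overlapped. This region also had H3K4me3 peaks in all 6 libraries, with scores of 55.8, 148.4, and 144.7 in F/F and 137.4, 108.5, and 119.4 in FC/FC. At the region nearest to Chchd3 (chr6:33094221-33095413), H3K4me1 scored 156.1, 94.5, and 131.2, and H3K4me2 scored 150.7, 170.3, and 111.4 in F/F and 201.8, 241.5, and 198.8 in FC/FC, each FC/FC library above each F/F library. Another 7 were nearest to Has2 (hyaluronan synthase), Fadd (a death receptor adaptor), Ahrr (the repressor of the aryl hydrocarbon receptor), Zfp595 (a zinc finger gene), Sash1 (a signalling scaffold), Mroh9, and Impad1 (a Golgi phosphatase). The Has2 region had H3K4me2 peaks in 1 F/F and 2 FC/FC libraries, and the remaining 6 had none. In the Has2 region, 2754 bp wide, no base was shared by the highest-scoring H3K4me1 peaks of all the FC/FC libraries.

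**Figure D2:**
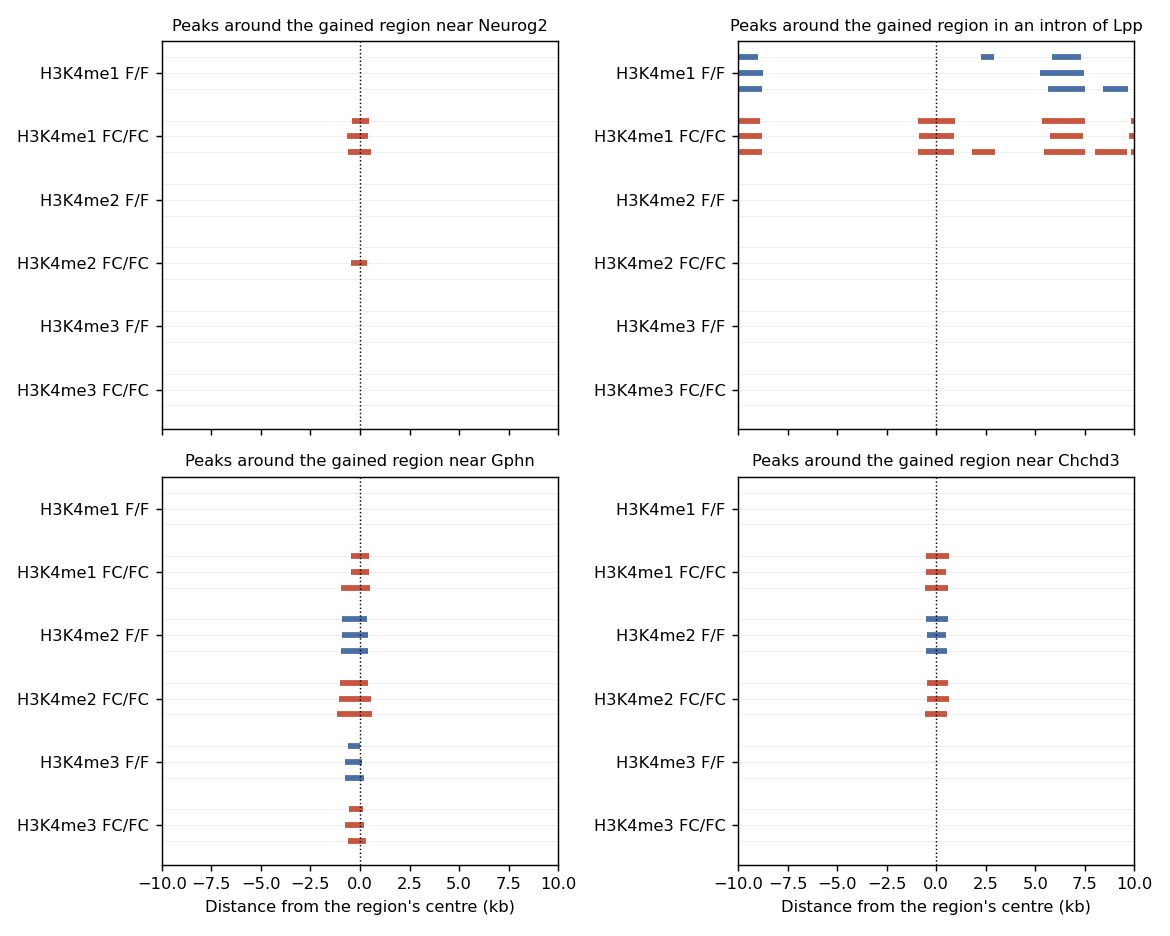
Peaks of the 18 libraries within 10 kb of the centre of 4 gained regions, 1 line per library, in blue for F/F and red for FC/FC; the x axis is the distance from the centre in kb. H3K4me1 peaks cover the centre in the 3 FC/FC libraries alone, and at the regions near Gphn and Chchd3 H3K4me2 covers it in all 6.

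The share of gained regions with an H3K4me2 peak overlapped between the genotypes. H3K4me2 peaks overlapped 27.6%, 30.9%, and 32.0% of the members in F/F replicates 1, 2, and 3, and 23.9%, 32.0%, and 27.9% in FC/FC replicates 1, 2, and 3. The means were 30.1% ± 2.30 and 27.9% ± 4.04 (SD, n = 3 each) with a difference of -2.21 percentage points (two-sided exact permutation test, p = 0.7; 3 libraries against 3 cannot give less than 0.1). Of the 272 members, 151 had no H3K4me2 peak in any library (55.5%, against 47.7% of all distal regions) and 53 had one in all 6 (19.5%, against 30.4%). No member had H3K4me2 peaks in the 3 FC/FC libraries alone (0.0166% of all distal regions did), and none had the reverse (1.23% of all). H3K4me2 was called in F/F cells at some members: 110 had a peak in at least 1 F/F library and 58 in all 3. Per F/F library, the share was 41.9% to 47.2% over all distal regions. It was 31.6% to 36.1% over those with a single F/F H3K4me1 peak. With equal numbers of top-scoring peaks from each H3K4me2 library the difference was 5.27 points in the other direction (exact permutation test, p = 0.2).

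The genotype difference at other distal regions depended on the number of peaks taken. At constant regions the share with an H3K4me2 peak had a mean of 76.3% ± 3.80 for F/F and 65.1% ± 2.01 for FC/FC (SD, n = 3 each), with every FC/FC library below every F/F library (exact permutation test, p = 0.1, the smallest possible). At lost regions it was 8.04% ± 2.07 and 3.44% ± 0.39, again without overlap (exact p = 0.1). The share at gained minus that at constant regions was 8.98 points higher in FC/FC, with no overlap between the libraries (exact permutation test, p = 0.1). The same difference against lost regions was 2.40 points and overlapped (exact p = 0.5). F/F libraries held more H3K4me2 peaks (62100 to 70437) than FC/FC libraries (56112 to 58585). With equal numbers of peaks the difference at constant regions was -3.29 points (65.5%, 67.7%, and 68.1% for F/F against 60.8%, 65.0%, and 65.6% for FC/FC) and at lost regions -0.52 points, both now with overlapping libraries (exact permutation test, p = 0.2 each), beside the 5.27 points at members. The difference between members and constant regions was then 8.56 points, but with the larger genotype difference at the members. The 3 marks of a replicate were called against 1 shared H3 library, and the part of that in these values was not tested.

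**Figure D3:**
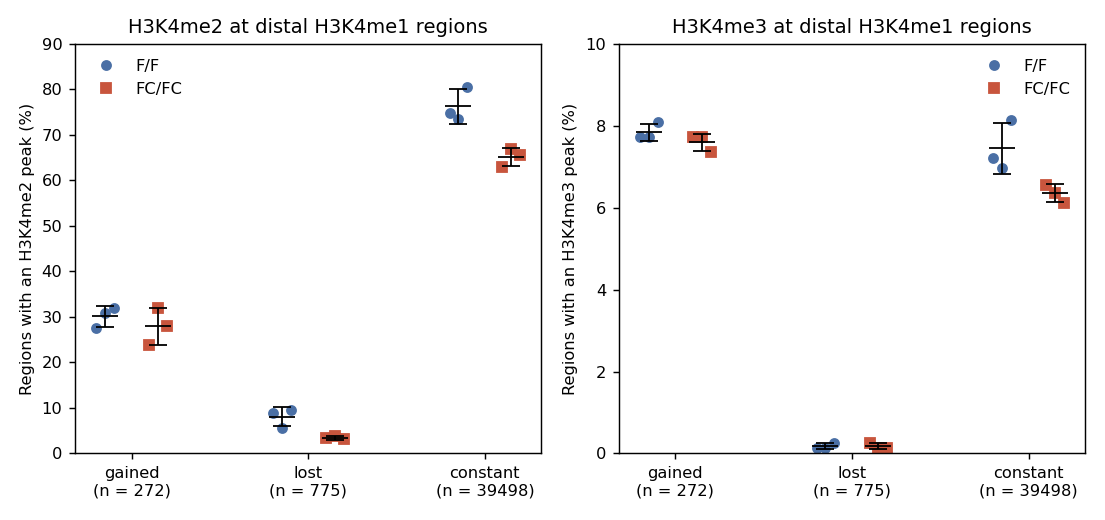
Share of gained, lost, and constant distal H3K4me1 regions that overlap an H3K4me2 peak (left) or an H3K4me3 peak (right), in %, with 1 point per library and the mean ± SD (n = 3). At gained regions the F/F and FC/FC libraries overlap for H3K4me2 (30.1% and 27.9%), while at constant regions every FC/FC library lies below the F/F libraries.

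Ranking each H3K4me2 peak by score within its library gave their relative strength. In 5 members (1.84%) each FC/FC library ranked above each F/F library, against 0.283% of all distal regions, and in 2 members (0.74%) each ranked below, against 13.5%. The 5 were the Chchd3 region and those nearest to Pank3 (pantothenate kinase), Fam170a, Ptf1a (a pancreatic transcription factor), and Atp5g3 (an ATP synthase subunit), the last 4 named after their values were seen. At the region nearest to Pank3 the H3K4me2 scores were 115.8, 77.7, and 54.5 in F/F and 132.6, 146.3, and 149.7 in FC/FC libraries, and at that nearest to Ptf1a 1813, 1155, and 1687 against 2238, 2428, and 2782. The 2 lower members, nearest to 1700057H21Rik and 2810403A07Rik, were likewise chosen by these values. The number depended on the peak lists: with 56112 top-scoring H3K4me2 peaks in each library it was 36 members higher (13.2%, against 4.98% of all distal regions) and 0 lower (against 3.70%). Without F/F replicate 2 or 3 it was 8 and 12, and without FC/FC replicate 1 or 3 it was 12 and 19. With a library left out, fewer libraries had to meet the condition at every region. The share of all distal regions was not counted there, so those counts cannot be read as a trait of the members. The 36, the 4.98%, and the 19 include tied scores. At members with the ceiling score of 3100 in all 6 libraries, such as that nearest to Zfp788, ranks differed only through the few peaks above 3100. In those settings such tied members counted as higher, so these numbers overstate how many had stronger H3K4me2.

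H3K4me3 was present at few gained regions, in overlapping shares in the genotypes. It overlapped 7.72%, 7.72%, and 8.09% of the members in F/F and 7.72%, 7.72%, and 7.35% in FC/FC libraries (7.84% ± 0.21 and 7.60% ± 0.21, SD, n = 3 each; exact permutation test, p = 0.6). In all, 22 members had an H3K4me3 peak in at least 1 library, and 19 had one in all 6, or 6.99% of the members against 3.40% of all distal regions, 4.95% of constant regions, and 0.13% of lost regions. The regions with a single F/F H3K4me1 peak were close to the members, with H3K4me3 at 6.25% to 6.80% of them per library. All 22 also carried H3K4me2 in all 6 libraries. At the 19, then, H3K4me3 was called in both genotypes and H3K4me1 in FC/FC alone.

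The H3K4me3-bearing members often lay at start sites outside the transcript table used for the rule. Of the 22, 13 lay within 5 kb of a TSS in the GENCODE M21 annotation, and 8 within 1 kb, as against 65 and 25 of all 272 members. The members as a whole (23.9% and 9.19%) were close to all distal regions (23.8% and 9.80%). Distal regions with H3K4me3 outside the members were not examined for this. Most of the nearby GENCODE TSSs of members belonged to protein-coding transcripts (36 of the 65). The median CpG ratio (observed over expected CpG) of the 22 was 0.339, while that of all members was 0.169. A CpG ratio above 0.6, typical of CpG islands, was found in 5 members (1.84%, against 0.42% of all distal regions, 1.47% of those with a single F/F peak, and 2.07% of those called in 2 FC/FC libraries), named here after their values were seen: those in exons of Cacna1a (a calcium channel gene), Fndc1, Wnt6 (a Wnt ligand gene), and C530008M17Rik, and 1 nearest to Lrp3. Of the 5, the Fndc1 region alone had no H3K4me3 peak. With regions within 5 kb of a GENCODE TSS left out, 207 members remained and the H3K4me2 difference was -3.54 points (exact permutation test, p = 0.4).

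The gained regions were poor in GC. Their median GC content was 41.0%, against 44.3% over all distal regions and 46.7% in lost regions. The regions just outside the rule shared this, with medians of 41.4% for those with a single F/F peak and 41.6% for those called in 2 FC/FC libraries. When all distal regions were divided into 5 equal bins by GC content, 129 of the 272 members were in the lowest bin (up to 40.6% GC), or 7.67 per 1000 regions, and the next bins had 3.21, 2.50, 1.84, and 0.951 per 1000. Lost regions ran the other way, from 3.21 per 1000 in the lowest bin to 16.9 in the highest. The regions called in a single library also differed: their median GC was 46.7%, 45.1%, and 44.6% for F/F replicates 1, 2, and 3 and 44.8%, 43.0%, and 40.4% for FC/FC replicates 1, 2, and 3. Over every distal region with a peak, the medians were 44.2% to 44.6% in F/F and 43.7% to 44.2% in FC/FC. Base composition thus moved with the library as well as with the genotype, and its part in the choice of members was not tested.

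**Figure D4:**
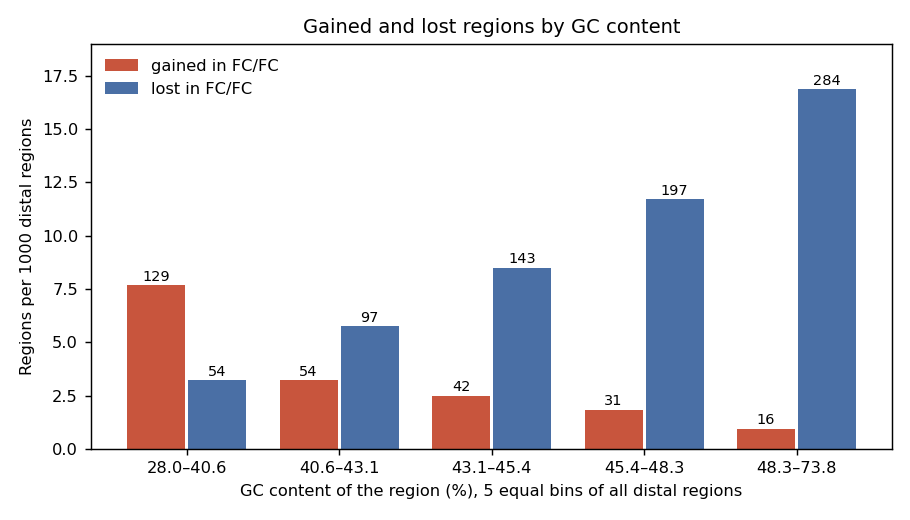
Gained and lost regions per 1000 distal H3K4me1 regions, in 5 equal bins of all distal regions by GC content (%), with the number of regions above each bar. Gained regions go from 7.67 per 1000 in the lowest bin to 0.951 in the highest, and lost regions from 3.21 to 16.9.

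AP-1, the dimer of FOS and JUN proteins that binds many fibroblast enhancers, has the motif TGANTCA, and 68 members (25%) held it in their 300-base window, against 18.9% of all distal regions, 17.2% of lost regions, 20.3% of those with a single F/F peak, and 17.5% of those called in 2 FC/FC libraries. The share of members with it was above that of all regions in each GC bin (23.3% against 19.5% in the lowest). CCAAT, bound by NF-Y, was found in 41.5% of members and 34.4% of all regions, and the E-box CAGCTG in 16.2% and 18.1%. The other motifs were GGAATG for TEAD (22.1% of members, 22.7% of all), AACCACA for RUNX (8.46% and 8.92%), AGATAAG for GATA (5.51% and 3.80%), TGTTTAC for forkhead factors (4.78% and 4.63%), TTGCNNAA for C/EBP (15.4% and 13.9%), and GGGCGG, the GC box (4.41% and 4.60%). Both strands were searched, overlapping matches of different motifs were kept, and a match is a description of the letters, not a bound site.

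By the transcript table used for the rule, the members lay farther from start sites than distal regions in general. Their median distance to a TSS was 46246 bp, against 39165 bp for all distal regions and 33289 bp for lost regions, and 78 (28.7%) were more than 100 kb away, against 22.3% and 15.9%. By GENCODE M21 the median member was no farther away, at 12211 bp against 12663 bp for all distal regions, with upper quartiles of 34286 and 28823 bp. Regions just outside the rule were alike in this, with a median of 47898 bp and 27.5% over 100 kb for those with a single F/F peak, and 42280 bp and 28.9% for those called in 2 FC/FC libraries. Of the members, 123 (45.2%) were intergenic, 109 were in introns, and 40 overlapped exons, while 36.5% of all distal regions, and 39.8% and 41.2% of these neighbouring classes, were intergenic. The members were scattered: the most that any had within 100 kb was 1 other, and 8 members formed such pairs. Such pairs were in introns of Npnt (a matrix protein gene), and nearest to Fmr1os (the antisense partner of Fmr1) and Stac (an adaptor protein gene).

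Chromosome X held 16 members, or 8.85 per 1000 distal regions, while chromosomes 1 to 19 had 1.93 to 4.19. These were 5.88% of the members, and the share was 3.70% to 5.96% under the other member sets tried. On X were 2.15% of all distal regions, 4.14% of those with a single F/F peak, and 2.82% of those called in 2 FC/FC libraries. For lost regions X was not apart, with 7.74 per 1000 against 4.76 to 13.6 elsewhere. Of the 1808 distal regions on X, 599 were in the lowest GC bin, as were 11 of the 16 members, and there X had 18.4 members per 1000 regions and all chromosomes together 7.67. The share of distal H3K4me1 regions on X was 1.68% to 1.94% in F/F and 1.79% to 2.13% in FC/FC libraries, which overlapped. One X-linked member near a gene of the lists was in an intron of Kdm6a, which encodes UTX, a histone H3K27 demethylase of the MLL2 complex. At chrX:18175396-18176111 it scored 75.6, 78.2, and 73.1 for H3K4me1, and its H3K4me2 scored 1331, 1010, and 1620 in F/F and 1048, 1503, and 1317 in FC/FC libraries, which overlapped.

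**Figure D5:**
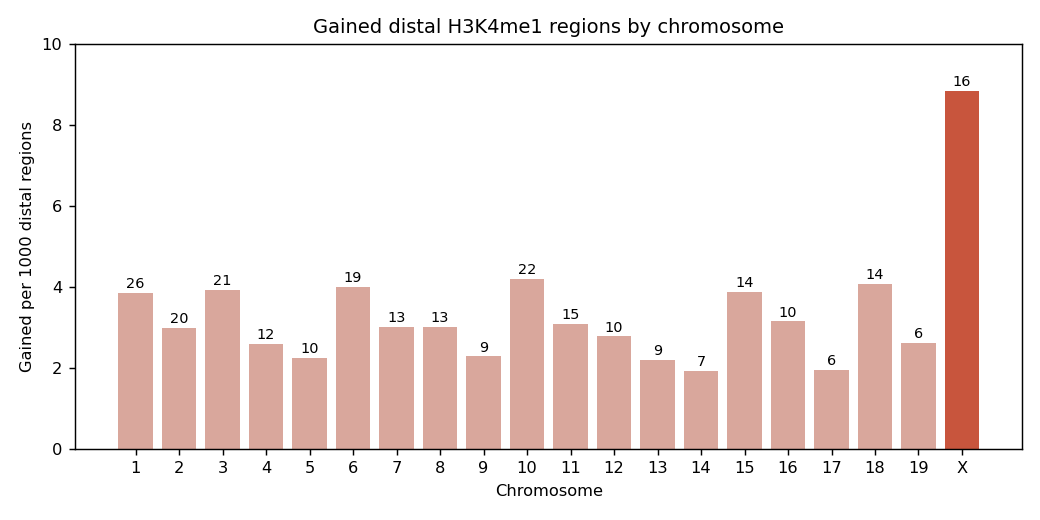
Gained regions per 1000 distal H3K4me1 regions on each chromosome, with the number of gained regions above each bar. Chromosome X has 16, or 8.85 per 1000, and chromosomes 1 to 19 have 1.93 to 4.19.

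The 272 members had 262 nearest genes, of which 249 were among the 23043 genes of the RPKM tables (1.08% of them). Of the 15 gene lists examined, 4 had any member nearby: 2 of 21 receptor tyrosine kinase genes and ligands (Efna5 and Fgf2), 1 of 15 fibroblast genes (Twist1, a mesenchymal transcription factor), 1 of 16 immediate early genes (Ier2), and 1 of 15 genes of H3K4 methyltransferase complexes (Kdm6a). Lost regions were nearest to 1 of the receptor tyrosine kinase list and 1 of the fibroblast list, and distal regions of any kind to 17 and 14. For the immediate early and methyltransferase complex lists, lost regions were nearest to 0 and 0 genes, and distal regions of any kind to 14 and 9. The Twist1 region lay in an exon of Hdac9, 263417 bp from the Twist1 TSS, at chr12:34221088-34222191, and scored 76.2, 50.9, and 74.3 with no H3K4me2 peak. The Fgf2 region, 5989 bp from the TSS of that growth factor gene at chr3:37341462-37342664, scored 65.0, 107.6, and 60.3, and an F/F H3K4me1 peak lay 129 bp away. The Efna5 region (ephrin A5) lay 389229 bp away and the Ier2 region was the Cacna1a exon described above.

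The genes nearest to the members showed little change in H3K4me2 or H3K4me3 over their transcripts. For H3K4me2, 98 of the nearest genes passed the filter of 1 RPKM in at least 3 of 6 libraries, and 2 were higher in FC/FC and 0 lower at an adjusted p under 0.05 (limma with a trend, Benjamini-Hochberg over all genes); 28 had an unadjusted p under 0.05, as did 2900 of all 9986 genes. Of all genes tested, 0.591% were higher and 1.55% lower, that is 59 of 214 calls higher, and with each library centred on its median 28 of 434 calls were. The 2 were Lrrtm1, which encodes a synaptic adhesion protein, and Elac2, which encodes a tRNA processing enzyme. H3K4me2 on Lrrtm1 was 0.817, 0.776, and 0.797 RPKM in F/F and 1.22, 1.08, and 1.16 RPKM in FC/FC libraries, without overlap (log2 difference 0.48 ± 0.05 SE, limma adjusted p = 0.0189). Since it was below 1 RPKM in every F/F library, Lrrtm1 passed the filter only through the FC/FC libraries; it was also called without the filter. On Elac2 it was 1.60, 1.53, and 1.62 RPKM in F/F and 1.95, 1.92, and 1.85 RPKM in FC/FC libraries (0.25 ± 0.04 SE, limma adjusted p = 0.0424). Neither member, 361506 bp from the Lrrtm1 TSS and 6898 bp from that of Elac2, had an H3K4me2 peak itself in any library.

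Each call was lost without 1 or more of the libraries. Without any one library other than FC/FC replicate 1, 0 nearest genes passed (limma), with 13 to 23 at an unadjusted p under 0.05. Of all genes, 0 to 18 passed in those settings, and 1595 to 2200 had an unadjusted p under 0.05. Without FC/FC replicate 1, which carries the antibody label of H3K4me1, 26 of 97 passed, all of them higher and Elac2 but not Lrrtm1 among them, as did 29.9% of all genes (2109 of the 2954 higher). With no filter on RPKM 7 of 249 nearest genes passed, of which 2 were higher, against 453 of all 23043 (1.97%). The median log2 difference was 0.09 over the 98 nearest genes and 0.07 over all genes. For H3K4me3, none of 86 nearest genes passed (limma), nor any of the 9073 tested (0.0%); 5 and 338 had an unadjusted p under 0.05. H3K4me1 RPKM, from the contrast that chose the members, had a median log2 difference of 0.03 over 101 nearest genes and 0.04 over 50 host genes, and -0.003 over all genes; this is given as a description only.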

How the data were processed

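ChIP-seq for H3K4me1, H3K4me2, and H3K4me3 was analysed in 18 of 52 samples (3 libraries per mark and genotype); the other 34 were not used here. Per the labels and the methods of the study, bases were called with CASAVA 1.4, reads were aligned to mm10 with BWA 0.7.10, and MACS 1.4.2 called the peaks, with an H3 library as control. The deposited peak score is 10 times the negative log10 p with a minimum of 50, so weak enrichment is left out, and scores depend on depth and saturate at about 3100. The RPKM that the authors deposited cover RefSeq transcripts plus 500 bp at either end.

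H3K4me1 peaks were merged when they overlapped by at least 1 bp, and TSSs came from the RPKM tables. The members, gene lists, motifs, and tests were chosen with earlier results of these data known. Regions named were the 12 with the highest lowest score, those nearest to a gene of the lists or to a gene that passed limma, and those with a neighbour within 100 kb; a gene near some of these is not reported here. The tests on shares per library were exact permutation tests (two-sided). Genes (longest transcript, at least 250 bp) with RPKM above 1 in at least 3 of 6 libraries were put into limma 3.58.1 (R 4.3.3, mean-variance trend) as log2(RPKM + 0.1); other steps used Python 3.11.15, SciPy 1.17.1, and bedtools 2.31.1. Fold changes of low genes are understated on this scale.

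Alternatives were other scores, numbers of peaks, TSS distances, overlaps, gaps, scalings, pseudocounts, and filters, and leaving out each library in turn. Distances to GENCODE M21 TSSs and the base composition and chromosome X share under other member sets were chosen after seeing the data.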

Additional observations from a re-analysis of the deposited data

How the results depend on the processing

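The number of gained regions was 156 with peaks of score 100 or more, and 439 to 939 when 1 H3K4me1 library was left out, since fewer libraries then had to meet the rule; over 2 kb or 10 kb from a TSS, with peaks within 500 bp merged, without F/F peaks within 1 kb, and with equal numbers of peaks it was 204 to 317. The H3K4me2 difference at members, -2.21 points, turned to 0.245 with H3K4me2 peaks of score 100 or more and to 5.27 with equal numbers of H3K4me2 peaks, and was -4.23 to -0.184 with 1 library left out. The H3K4me3 difference, -0.245, turned to 0.245 with peaks of score 100 or more, to 0 with equal numbers of H3K4me3 peaks, and to 0.105 with members by equal numbers of H3K4me1 peaks. Members less constant regions gave 6.84 to 11.7 over all alternatives, and members less lost regions 0.589 to 5.79, none past the threshold, which 3 libraries against 3 cannot reach. The count of members with a higher H3K4me2 rank was 36 with equal numbers of peaks (13.2%, against 4.98% of all distal regions). It was 6 to 19 with 1 library left out, where the share of all distal regions was not counted. The 36 and the 19 include members with tied scores at the ceiling. Nearest genes called for H3K4me2 were 7 of 249 without the filter, where 1.97% of all genes passed. Among genes within 50 kb 1 of 121 was called, against 2.14% of all genes. With 1 library left out 0 to 26 were called, against 0% to 29.9% of all genes. For H3K4me3 they were 0 under all alternatives run, with at most 2 calls among all genes. The median GC of members was 40.5% to 42.3% and their share on chromosome X 3.70% to 5.96% over the member sets tried. No paired analysis was possible because nothing in the labels pairs libraries across the genotypes. The summed reads in transcripts of the FC/FC H3K4me1 libraries were above those of the F/F libraries. Sequencing depth itself was not measured, and its part in membership was not tested.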
